A study of Rattus norvegicus with 29 samples.

Results

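Rats fasted for 14 h were set against fed rats to ask which genes of blood mononuclear cells respond to a short fast in the same way in lean and in obese animals. The comparison used 19 of the 29 arrays of the series, all those whose titles name a fasted or a fed rat, and averaged the fasting change over the diets with equal weight. The fasted arrays came from 5 control rats, kept on standard chow, and 5 cafeteria rats, which had also been offered an energy-dense, fatty diet for 4 months as a model of obesity. The fed arrays came from 4 control rats and 5 cafeteria rats that ate their diets freely. The other 10 arrays, from rats refed for 6 h after the fast, entered the fit only to estimate the spread between animals. All rats were male Wistar animals of 6 months, each array held the RNA of 1 rat, and the cells came from a Ficoll gradient of saphenous vein blood taken into heparin. Such a preparation mixes lymphocytes, monocytes and some platelets, so fewer cells of a type and less RNA per cell cannot be told apart in any value below.

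During a fast, insulin falls and glucocorticoids and catecholamines rise. Insulin restrains the FOXO transcription factors and drives the SREBP factors that switch on sterol and fatty acid synthesis, whereas glucocorticoids act through a nuclear receptor that switches on a set of immediate target genes in leukocytes. Glucocorticoids and catecholamines also move lymphocytes and monocytes between blood, marrow and tissues.

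Every value is a log2 ratio of the rat's own RNA, labelled with Cy5, to a pool of RNA from all groups, labelled with Cy3, and a change is the fasted mean minus the fed mean with its standard error. The median Cy5 signal of an array lay between 103.15 and 154.25 units in the 19 arrays, and the Cy5 signal was well above background at 58.1% to 66.7% of the spots. Of 28242 probes tested, 1103 (3.91%) passed in limma at a Benjamini-Hochberg adjusted p under 0.05, of which 508 (1.80%) rose and 595 (2.11%) fell. Among 11199 genes with a symbol, each read by its brightest probe, 513 (4.58%) passed, of which 225 (2.01%) rose and 288 (2.57%) fell. The changes were small: the median was 0.30 among the probes that rose and -0.29 among those that fell, against 0.0055 over all probes. Their size depended on the processing, and the same probes had medians of 0.43 and -0.40 with the scanner's processed signals. The balance of directions depended on how the arrays were normalised, with 441 rises and 849 falls from the scanner's processed signals, 302 and 736 from the authors' value table, and 7 and 0 when each array was only centred on its median.

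Bcl6 and Lpar6 had the smallest adjusted p among the falls named here. Bcl6, a transcriptional repressor known from germinal centre B cells and from T cells (probe at rn4 chromosome 11, 79030469 to 79030528), fell by 0.86 ± 0.11, a 1.82-fold lower level (adjusted p = 0.000193). In control rats its log2 ratio was -0.82, -0.70, -0.63, -0.60 and -0.78 in the 5 fasted animals, against 0.21, 0.62, 0.41 and 0.14 in the 4 fed ones. In cafeteria rats it was -0.31, -0.04, -0.45, -0.44 and -0.69 in the fasted animals, against 0.18, 0.56, 0.14, 0.10 and 0.48 in the fed ones. Every fasted rat was thus below every fed rat in both diets. Lpar6, a receptor for lysophosphatidic acid (chromosome 15, 53876199 to 53876258), had the same separation, with ratios of -0.54 to -0.17 (median -0.31) in fasted rats and 0.07 to 0.49 (median 0.30) in fed rats. Its fall of 0.60 ± 0.07 had an adjusted p of 7.51e-05. Id3, which blocks E proteins, the basic helix-loop-helix factors of lymphocyte development, spanned -0.96 to -0.34 (median -0.80) in fasted rats and -0.39 to 0.92 (median 0.09) in fed rats. Cafeteria fasted rat 2 was the only fasted rat inside the fed range, and the gene fell by 0.88 ± 0.14 (adjusted p = 0.000755). Its relative Id1 rose by 0.61 ± 0.16 (adjusted p = 0.0262), a call that ended without any 1 of control fed 1, control fasted 8, control fasted 14, cafeteria fed 1, cafeteria fed 7 or cafeteria fasted 5 (adjusted p up to 0.0633). The call of Id1 also ended with slide as a block (adjusted p = 0.0533) and in both fits of the 19 arrays alone (adjusted p of 0.0612 and 0.0662). The other 4 measured Id and E proteins did not pass.

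**Figure D1:**
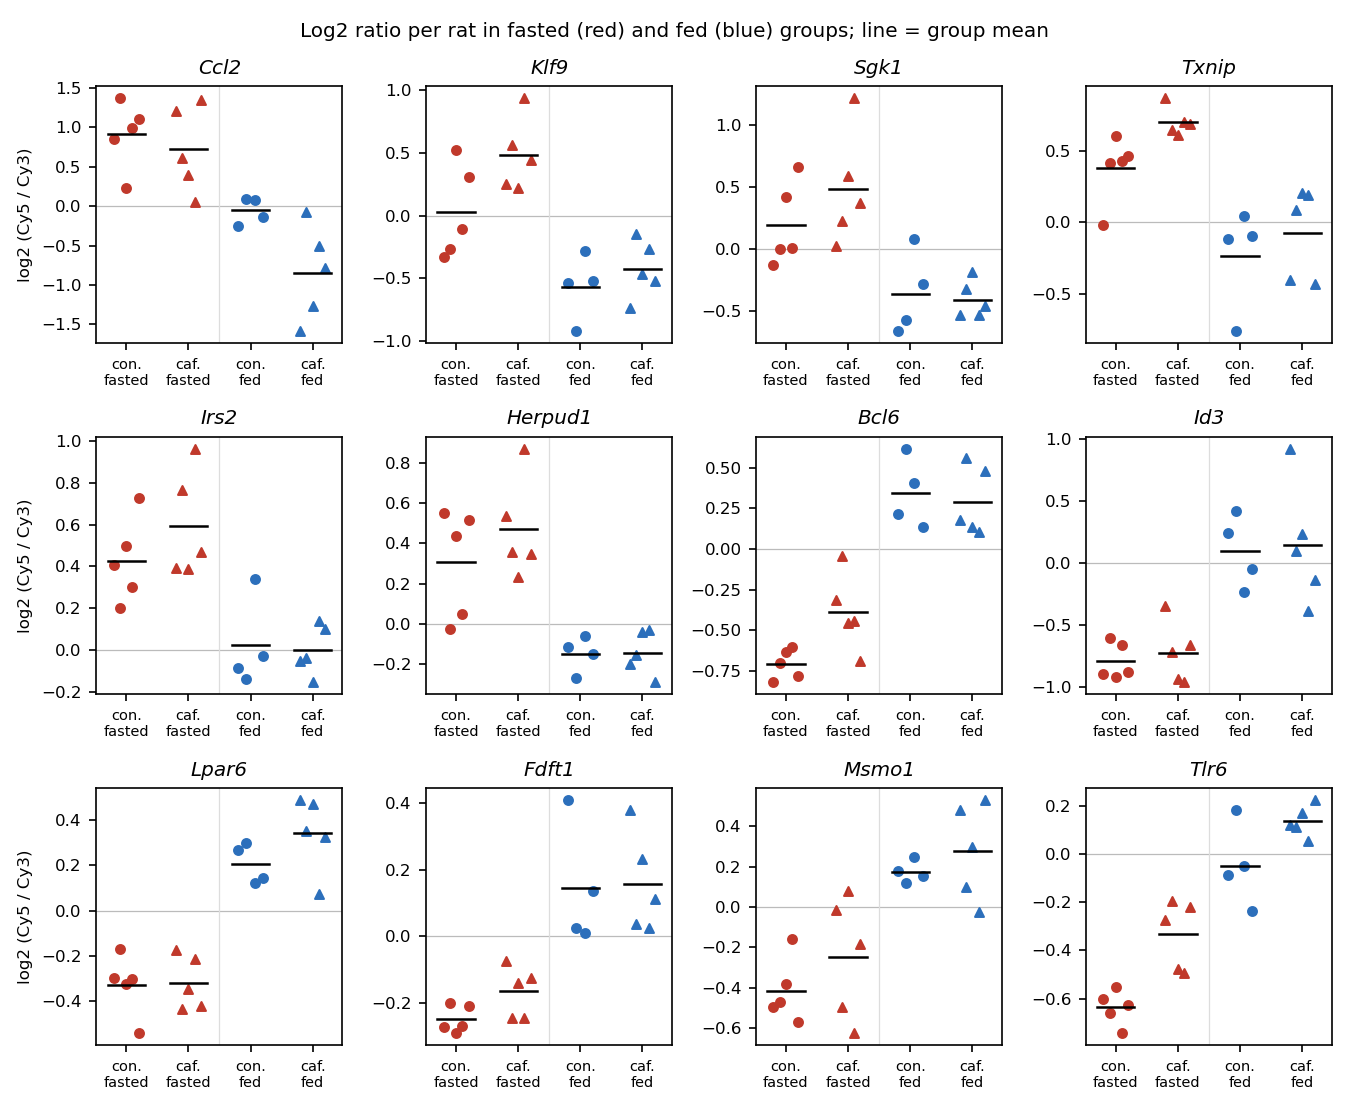
Log2 ratio of Cy5 to Cy3 for 12 genes, with 1 point per rat, circles for control and triangles for cafeteria rats, fasted groups in red at the left, fed groups in blue at the right, and a line at each group mean. The points of fasted and fed rats do not overlap for Bcl6, Lpar6, Fdft1 and Herpud1, and Id3 fell to a fasted median of -0.80, against 0.09 in fed rats.

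Some falls were of receptors that leukocytes carry on their surface. Sirpa, an inhibitory receptor of myeloid cells that binds CD47, fell by 0.57 ± 0.12 (adjusted p = 0.00626). Tlr6, which pairs with TLR2 to detect bacterial lipopeptides, fell by 0.53 ± 0.08 (adjusted p = 0.000406) with ratios of -0.74 to -0.19 (median -0.52) in fasted rats and -0.24 to 0.23 (median 0.12) in fed rats. It was the only 1 of 8 measured members of the Toll-like receptor list to pass, with 2.57% of all genes falling. The change was -0.33 for Tlr4 (adjusted p = 0.0806) and -0.30 for Tlr2 (adjusted p = 0.234), both measured but not called. Of the 8, 7 changes were negative. The 1 positive change was that of Cd14, also in this list, at 0.55 (adjusted p = 0.279).

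G0s2, an inhibitor of the triglyceride lipase ATGL, had the largest fall, 0.92 ± 0.20 (adjusted p = 0.00653), with ratios of -1.48 to 0.14 (median -0.74) in fasted rats and -0.15 to 0.64 (median 0.24) in fed rats. Exo5, a single-strand DNA exonuclease, fell by 0.71 ± 0.10 (adjusted p = 0.000406) and C1h16orf54, a membrane protein whose role is not well known, by 0.77 ± 0.11 (adjusted p = 0.000406), both with no overlap between fasted and fed rats. Pars2, the prolyl-tRNA synthetase of mitochondria, fell by 0.61 ± 0.09 (adjusted p = 0.000576). Fem1b, a substrate receptor of a ubiquitin ligase, fell by 0.61 ± 0.09 (adjusted p = 0.000406), although 1 of its 3 probes had the opposite sign. Tmem204, Mettl7a, Hyal2 and Gcnt2 were also among the 15 largest falls, at -0.80, -0.65, -0.56 and -0.56. Across all genes, 44 (0.393%) separated the 10 fasted from the 9 fed rats with no overlap, of which 18 rose and 26 fell.

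Of 20 measured genes of the glucocorticoid response list, which also holds the receptor gene Nr3c1, 7 rose, 1 fell and 12 did not pass. Over all genes 2.01% rose and 2.57% fell. The median change of the list was 0.18, against 0.0046 over all genes, with 13 positive and 7 negative changes. By diet the median was 0.35 in cafeteria and 0.04 in control rats, and this difference between the diets was not tested. It is also partly mixed with the 2 runs of image extraction described below. Klf9, a transcription factor that the glucocorticoid receptor binds and induces, had ratios of -0.33 to 0.94 (median 0.28) in fasted rats and -0.92 to -0.15 (median -0.52) in fed rats, and rose by 0.75 ± 0.13 (adjusted p = 0.00171). The lowest fasted ratios, -0.33 and -0.27, were in control rats 2 and 5 and lay within the fed range. Sgk1, a kinase that shares targets with AKT, rose by 0.73 ± 0.16 (adjusted p = 0.00791), and Per1, a clock repressor with a glucocorticoid response element, by 0.60 ± 0.13 (adjusted p = 0.0073). Tsc22d3, which encodes the anti-inflammatory protein GILZ, rose by 0.47 ± 0.12 (adjusted p = 0.0185), but did not pass with Cy5 alone (0.25, adjusted p = 0.126) or with slide as a block (0.46, adjusted p = 0.053). Nfkbia, the inhibitor that holds NF-kB in the cytoplasm, rose by 0.57 ± 0.12 (adjusted p = 0.00587), and Mt1, a metal-binding protein chosen here after its values were seen, by 0.50 ± 0.09 (adjusted p = 0.00302). The cell cycle inhibitor Cdkn1a rose by 0.61 ± 0.15 (adjusted p = 0.0165), a call that ended in an additive model of the 19 arrays alone (adjusted p = 0.0566). Fkbp5, a co-chaperone of the glucocorticoid receptor, did not pass, with a change of 0.25 ± 0.09 (adjusted p = 0.138). Cebpd, also known as a glucocorticoid-induced factor, fell by 0.55 ± 0.12 (adjusted p = 0.00818).

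The mean of the glucocorticoid list ranged from -0.27 to 0.42 (median 0.09) in fasted rats and from -0.40 to 0.03 (median -0.18) in fed rats. All 5 cafeteria fasted rats lay at 0.11 or above, while 3 of the 5 control fasted rats, at -0.27, -0.19 and -0.22, lay among the fed rats. Fasted cafeteria rat 5 was the highest of all.

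Among 19 measured genes of insulin signalling and FOXO targets, 4 rose and 2 fell, with 2.01% and 2.57% over all genes. The median change of this list was 0.05, with 12 positive and 7 negative changes. Txnip, an inhibitor of thioredoxin and of glucose uptake that cells induce when insulin signalling is low, had ratios of -0.02 to 0.87 (median 0.61) in fasted rats and -0.76 to 0.20 (median -0.10) in fed rats, and rose by 0.69 ± 0.12 (adjusted p = 0.00162). Control fasted rat 2, at -0.02, was the only fasted rat inside the fed range. Irs2, the docking protein of the insulin receptor, rose by 0.50 ± 0.09 (adjusted p = 0.00227), with 4 of its 4 probes on the same side. Its ratios were 0.20 to 0.96 (median 0.44) in fasted rats and -0.15 to 0.34 (median -0.03) in fed rats. Pik3r1, the regulatory subunit of PI3-kinase, rose by 0.28 ± 0.06 (adjusted p = 0.00516) and was chosen after its values were seen. Tob1, a brake on lymphocyte proliferation, rose by 0.40 ± 0.10 (adjusted p = 0.0186). Of the falls, Bcl6 is described above, and Ccng2, an unusual cyclin of quiescent cells and also chosen after its values were seen, fell by 0.23 ± 0.06 (adjusted p = 0.0312). The call of Ccng2 ended without any 1 of 8 of the 19 arrays (adjusted p up to 0.0684). Insr, the insulin receptor itself, changed by -0.09 ± 0.05 (adjusted p = 0.378), and its Cy5 signal was well above background on 5 of the 10 fasted and 6 of the 9 fed arrays.

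Of 24 measured genes of sterol synthesis and uptake, 5 fell and 0 rose, against 2.57% and 2.01% of all genes. A negative change was seen in 18 of the 24 (median -0.12, against 0.0046 over all genes). Msmo1, a methylsterol monooxygenase of the steps after lanosterol, fell by 0.56 ± 0.09 (adjusted p = 0.00114). Its ratios were -0.62 to 0.08 (median -0.42) in fasted rats and -0.02 to 0.53 (median 0.18) in fed rats. Fdft1, squalene synthase, fell by 0.36 ± 0.07 (adjusted p = 0.0025), with every fasted rat (-0.29 to -0.07) below every fed rat (0.01 to 0.41). Sqle, squalene epoxidase, fell by 0.40 ± 0.09 (adjusted p = 0.0128), Hmgcs1, which makes HMG-CoA, by 0.34 ± 0.08 (adjusted p = 0.018), and Dhcr7, the last enzyme of cholesterol synthesis and chosen after its values were seen, by 0.32 ± 0.06 (adjusted p = 0.00371). Insig1, which retains SREBP in the endoplasmic reticulum, changed by 0.01 (adjusted p = 0.957) and did not pass. The factor behind the pathway, Srebf2, changed by -0.11 ± 0.08 (adjusted p = 0.541), with 1 of its 2 probes on the other side of 0.

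Fatty acid genes moved in few cases. Scd2, a desaturase of lymphocytes and brain, was the only 1 of 18 measured genes of fatty acid and triglyceride synthesis to pass, with a fall of 0.52 ± 0.08 (adjusted p = 0.000523) and ratios of -0.57 to -0.18 (median -0.44) in fasted rats and -0.34 to 0.35 (median 0.16) in fed rats. The change was -0.27 ± 0.08 for Srebf1 (adjusted p = 0.0522), the factor of fatty acid synthesis, -0.17 ± 0.06 for Fasn (adjusted p = 0.101) and -0.13 ± 0.11 for Scd (adjusted p = 0.579). Srebf1 passed in 4 of the other settings. Among 28 genes of fatty acid oxidation and PPAR targets, 0 rose and 1 fell, close to the shares of all genes (2.01% and 2.57%). That fall was of Cpt2, the inner-membrane carnitine palmitoyltransferase, at -0.30 ± 0.09 (adjusted p = 0.0452), and it ended without any 1 of 12 of the 19 arrays (adjusted p up to 0.0969). Cpt1a, the rate-limiting step of mitochondrial fatty acid entry, changed by 0.19 ± 0.06 and just missed the threshold (adjusted p = 0.0515), with 0.05 in cafeteria and 0.33 in control rats, and it too passed in 4 of the other settings. The changes were 0.00 for Ppara and -0.01 for Ucp2, and Pdk4 was too dim on most arrays to enter the test. The Cy5 signal of Ppara was not well above background on all 19 arrays, which limits what its value can show.

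Slc27a2, a fatty acid transporter and acyl-CoA synthetase, had a change of 0.22 ± 0.97 (adjusted p = 0.943), and its ratios fell into separate clusters. It was at -4.26 or lower in control fasted rat 5, cafeteria fasted rats 8 and 11 and control fed rats 7 and 13, and at -4.14 in control fed rat 4, but between -0.61 and 1.61 in the other 13 rats. Its change was -2.29 in cafeteria and 2.74 in control rats, and its 2 probes differed in sign.

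Chemokines gave the largest rises. Ccl2, which attracts monocytes, had ratios of 0.05 to 1.37 (median 0.92) in fasted rats and -1.59 to 0.09 (median -0.25) in fed rats. It rose by 1.26 ± 0.20, a 2.40-fold higher level (adjusted p = 0.000699), and only cafeteria fasted rat 11 lay within the fed range. Cxcl2, which attracts neutrophils, rose by 1.83 ± 0.51 (adjusted p = 0.0414), with ratios of -0.87 to 2.71 (median 0.61) in fasted rats and -4.06 to 0.99 (median -0.90) in fed rats. Its highest values were in cafeteria fasted rats 2 and 5, its lowest in cafeteria fed rats 1 and 7, and its call ended without any 1 of 14 of the 19 arrays (adjusted p up to 0.0849). It also ended in 6 of 13 other settings, among them slide as a block (adjusted p = 0.0684), the platelet mean as a covariate (0.0613) and the processed signals (0.0685). Cxcl1, of the same family, rose by 0.75 ± 0.21 (adjusted p = 0.0447), which ended without any 1 of 13 arrays (adjusted p up to 0.0893) and in 3 of 12 other settings. Its Cy5 signal was well above background on 5 of the 9 fed arrays, and its change was 1.25 in the authors' value table and 2.69 with the processed signals. Cafeteria fasted rat 5, the highest for Cxcl2 and Cxcl1, also had the highest mean of neutrophil markers, 0.80, with 0.14 or lower in the other fasted rats and -0.38 to 0.09 in fed rats, and the part of neutrophils in these rises was not tested. Of 22 measured cytokines, chemokines and receptors, 4 rose and 1 fell (2.01% and 2.57% over all genes), the fourth rise being Nfkbia. The fall was Il6, a gene chosen after its values were seen and detected above background on 1 of 10 fasted and 6 of 9 fed arrays, so the size of its change is not measured. It was -0.12 (adjusted p = 0.0487) here and -1.29 with the processed signals. Its call ended without any 1 of 14 arrays (adjusted p up to 0.094). Tnf changed by -0.05 (adjusted p = 0.342), Il1b by 0.20 (adjusted p = 0.697) and Cxcr4, the receptor that holds leukocytes in marrow, by 0.53 ± 0.16 (adjusted p = 0.0543), and Cxcr4 passed in 5 of 13 other settings and without any 1 of 3 arrays.

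Other large rises were of signalling proteins and lectins. Rgs1, a brake on chemokine receptor signalling, rose by 0.94 ± 0.22 (adjusted p = 0.013), with ratios of 0.01 to 0.81 (median 0.52) in fasted rats and -1.33 to 0.41 (median -0.35) in fed rats. Pde4d, a cyclic AMP phosphodiesterase, rose by 0.79 ± 0.17 (adjusted p = 0.00655), and Rasd1, a small GTPase first known as dexamethasone-induced, by 0.81 ± 0.16 (adjusted p = 0.00447), although its other probe changed by 0.03. Sik1, a salt-inducible kinase switched on by cyclic AMP, rose by 1.18 ± 0.31 (adjusted p = 0.027). The call of Sik1 ended without any 1 of control fed 7, control fasted 14, cafeteria fed 1, cafeteria fasted 5 or cafeteria fasted 8 (adjusted p up to 0.0677). It also ended with slide as a block (1.00, adjusted p = 0.0767) and in both fits of the 19 arrays alone (adjusted p of 0.0742 and 0.0637). Clec10a, a galactose-binding lectin of macrophages and dendritic cells, rose by 1.01 ± 0.28 (adjusted p = 0.0339), and the complement proteins Cfd and C2 by 0.89 ± 0.24 (adjusted p = 0.0347) and 0.80 ± 0.22 (adjusted p = 0.0398). Between 11 and 13 of the 19 arrays, each left out alone, ended these 3 calls (adjusted p as high as 0.089). Chst2, a sulfotransferase of selectin ligands, and Dnaaf2 each rose by 0.76 (adjusted p = 0.0123 and 0.00815), and were called without any 1 array.

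**Figure D2:**
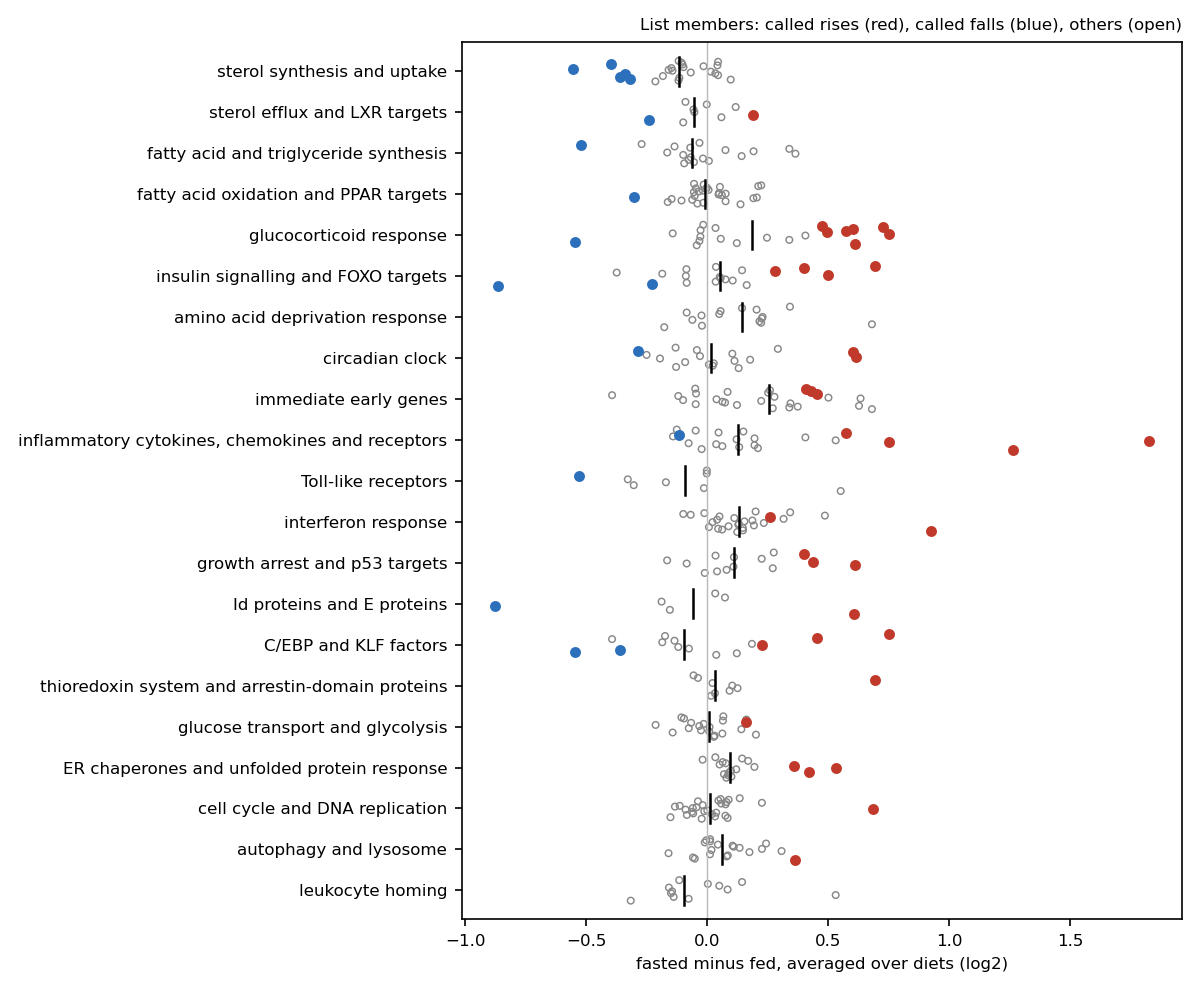
Change of every measured member of the 21 gene lists (log2, fasted minus fed, averaged over diets), with called rises in red, called falls in blue, other members open and a bar at each list's median. Sterol synthesis has 5 falls and 0 rises, and the glucocorticoid response 7 rises and 1 fall. Over all genes 2.01% rose and 2.57% fell.

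The interferon list followed the chemokines only in part. Of 26 measured members, 2 rose and 0 fell (2.01% and 2.57% over all genes), and 23 had a positive change. The list median was 0.13, with 0.26 in cafeteria and 0.0090 in control rats, a difference that was not tested. The mean of the list was 0.71 in cafeteria fasted rat 14 and -0.04 to 0.07 in the other cafeteria fasted rats. It was -0.29 to 0.17 in fed rats. Cxcl10, an interferon-induced attractant of T cells, rose by 0.92 ± 0.22 (adjusted p = 0.015), a call that ended with the scanner's processed signals (1.61, adjusted p = 0.0721). Parp14 rose by 0.26 ± 0.07 (adjusted p = 0.0227), which ended without control fed 4 or cafeteria fasted 11 (adjusted p up to 0.0624). Mx1, Ifit1 and Isg15 changed by 0.04, 0.13 and 0.19 (adjusted p of 0.902, 0.898 and 0.683).

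Chaperones of the endoplasmic reticulum were represented by 3 rises among 18 measured genes and 0 falls (2.01% and 2.57% over all genes), and 17 changes were positive. The list median was -0.02 in cafeteria and 0.24 in control rats, a difference that was not tested. Herpud1, which serves the degradation of misfolded proteins, had ratios above those of every fed rat in all 10 fasted rats, with medians of 0.40 in fasted and -0.15 in fed rats. It rose by 0.53 ± 0.08 (adjusted p = 0.000635). The chaperone partner Dnajb9 rose by 0.42 ± 0.08 (adjusted p = 0.002), and Hspa5, the main chaperone of this compartment (BiP), by 0.36 ± 0.07 (adjusted p = 0.00399). The mean of the list was 0.89 in control fasted rat 2 and -0.17 to 0.11 in the other 9 fasted rats, against -0.24 to 0.18 in fed rats. The mean of plasma cell markers was 2.03 in the same rat and 0.22 or lower in the other fasted rats, against -0.78 to 0.58 in fed rats. With control fasted rat 2 or any other single array left out, all 3 genes stayed called (adjusted p up to 0.0136).

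Immediate early genes, whose transcription needs no new protein, had a median change of 0.26, and 3 of 26 passed as rises, against 2.01% of all genes. These were Klf6 at 0.46 ± 0.13 (adjusted p = 0.0485), Nr4a2 at 0.43 ± 0.12 (adjusted p = 0.041) and Rhob at 0.41 ± 0.11 (adjusted p = 0.0398). Each of the 3 calls was lost when any 1 of 12 to 15 arrays was dropped (adjusted p as high as 0.119). Fos, Jun and Egr1 changed by 0.34, 0.63 and 0.63 with adjusted p of 0.435, 0.187 and 0.171, and Atf3 by 0.68 ± 0.20 (adjusted p = 0.0591). Without cafeteria fed 10, Atf3 passed (adjusted p = 0.0073). Among 18 clock genes 2 rose and 1 fell, against 2.01% and 2.57% of all genes. Nfil3, an E4 promoter-binding repressor, rose by 0.61 ± 0.11 (adjusted p = 0.00248) beside Per1. Per2 fell by 0.29 ± 0.08 (adjusted p = 0.0322), a call that ended without any 1 of 8 arrays (adjusted p up to 0.0756). Bmal1, Clock and Cry1 changed by 0.02, 0.01 and 0.03, far from the threshold (adjusted p of 0.912, 0.953 and 0.857).

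Growth arrest genes gave 3 rises of 14 and 0 falls, against 2.01% and 2.57% of all genes. Besides Cdkn1a and Tob1, Gadd45a, a DNA damage and stress sensor, rose by 0.44 ± 0.09 (adjusted p = 0.00342). Of 28 measured cell cycle genes 27 did not pass, and Cks2, a subunit of cyclin-dependent kinases, rose by 0.68 ± 0.16 (adjusted p = 0.0109). A single rise of 28 is close to the 2.01% of all genes. Prdm1, the repressor Blimp-1 that Bcl6 is known to antagonise, rose by 0.59 ± 0.16 (adjusted p = 0.0306), and this call ended without any 1 of 10 arrays (adjusted p up to 0.0631). Among C/EBP and KLF factors 3 of 14 rose and 2 fell (2.01% and 2.57% over all genes). They were Klf9, Klf6 and Klf11 (0.23, adjusted p = 0.0424), and Cebpd and Cebpe (-0.36, adjusted p = 0.0423), of which Klf11 was chosen after its values were seen. Klf11 and Cebpe each lost the call without any 1 of 14 arrays (adjusted p up to 0.0916).

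The remaining lists gave few calls or none. Autophagy and lysosome genes had 1 rise of 20, Atg12, a ubiquitin-like conjugation protein, at 0.36 ± 0.07 (adjusted p = 0.00281), which did not pass in the authors' value table (0.34, adjusted p = 0.0575). Glucose transport and glycolysis had 1 rise of 20, Pfkp at 0.16 ± 0.05 (adjusted p = 0.0459), which ended without any 1 of 13 arrays (adjusted p up to 0.106) and in 9 of 13 other settings. A single rise of 20 is close to the 2.01% of all genes. Txnip was the only 1 of 9 genes of the thioredoxin list to pass, with 4.58% over all genes. None of 15 genes of the amino acid deprivation response and none of 12 homing genes passed in limma, close to that share. Their largest changes were those of Atf3 and Cxcr4, given above, followed by 0.34 for Trib3 (adjusted p = 0.139) and -0.32 for Ccr6 (adjusted p = 0.14). Of 9 sterol efflux genes, Apoe rose by 0.19 and Abcg1 fell by 0.24 (adjusted p of 0.0475 and 0.0365). Dropping any 1 of 11 to 15 arrays ended these calls (adjusted p as high as 0.124). Over all genes 2.01% rose and 2.57% fell.

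The fasting change was then set side by side in cafeteria and control rats. All 1103 called probes had the same sign in both diets, which the average favours by its construction. Over the 225 called genes that rose, the median change was 0.34 in cafeteria and 0.28 in control rats, and over the 288 that fell it was -0.28 in both. The difference between diets itself was tested as an interaction over all 28242 probes, and 0 (0%) passed in limma (lowest adjusted p = 0.823), with 907 (3.21%) at an unadjusted p under 0.05. Under the other settings 0 probes passed as well. Of the 513 called genes, 25 had an unadjusted interaction p under 0.05. Dusp15, a dual-specificity phosphatase, had the smallest of these, which adjustment over all probes in limma brought to 0.9997. Its call for the average ended with the processed signals (adjusted p = 0.0549) and in the authors' value table (adjusted p = 0.0574). It changed by 0.06 in cafeteria and 0.33 in control rats, with 0.22 to 0.34 in the 5 control fasted rats against -0.12 to 0.02 in the 4 control fed rats. Cebpd fell less in cafeteria (-0.25) than in control rats (-0.84), and Cdkn1a rose more in cafeteria (0.96) than in control rats (0.25). Both had an unadjusted interaction p of 0.022 in limma that did not survive adjustment. Within each diet, fasted and fed arrays were spread unevenly over the 2 runs of image extraction described below, in opposite directions. Every difference between the diets given here is therefore partly mixed with run. The change of Cebpd was -0.17 within run 1 and -0.84 within run 2.

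**Figure D3:**
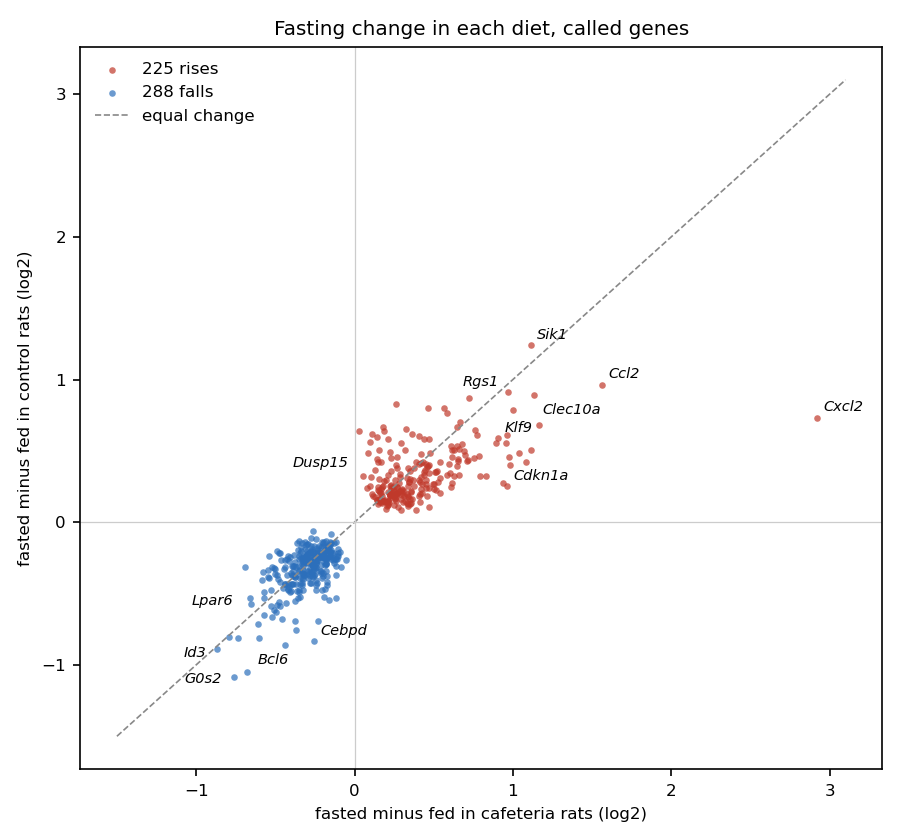
Fasting change of the 513 called genes (log2, fasted minus fed) in cafeteria rats on the horizontal and in control rats on the vertical axis, with 225 rises in red, 288 falls in blue and a dashed line of equal change. All points lie in the quadrants where both diets have the same sign, and Cxcl2 stands far from the line with 2.92 in cafeteria and 0.73 in control rats.

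Markers of the cell types in such a preparation were read beside these changes. Over the 10 lists of markers 2 genes passed, Cd28, a T cell costimulatory receptor that rose by 0.35 ± 0.08 (adjusted p = 0.0123), and Prdm1. Over all genes 4.58% passed, 2.01% as rises and 2.57% as falls. A list of 13 to 15 markers with 0 called is therefore close to the share of all genes. No marker of monocytes (0 of 14), neutrophils (0 of 13), NK and cytotoxic cells (0 of 15) or B cells (0 of 13) passed, and their list medians were -0.16, 0.03, 0.05 and -0.06. In cafeteria rats these 4 medians were 0.01, 0.15, -0.09 and -0.18, and in control rats -0.20, -0.14, 0.15 and 0.02. The plasma cell median was -0.29 in cafeteria and 0.24 in control rats. These differences between the diets were not tested. The defining markers Cd3e of T cells and Csf1r of monocytes changed by 0.03 and -0.20 (adjusted p of 0.925 and 0.632). Monocyte markers were mixed in sign, with 4 positive and 10 negative changes. The largest was that of Cd14, at 0.55 (adjusted p = 0.279 in limma). Platelet markers had a median change of 0.32 with 0 of 13 called and 12 of 13 positive. Their mean ranged from -0.41 to 0.72 in fasted and from -0.69 to 0.92 in fed rats. Erythroid markers had a median change of 0.31 with 0 of 14 called and 13 of 14 positive. The part of these cells in the changes above was not tested gene by gene. With the platelet mean as a covariate 1005 probes passed, among them 886 of the 1103 called without it.

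**Figure D4:**
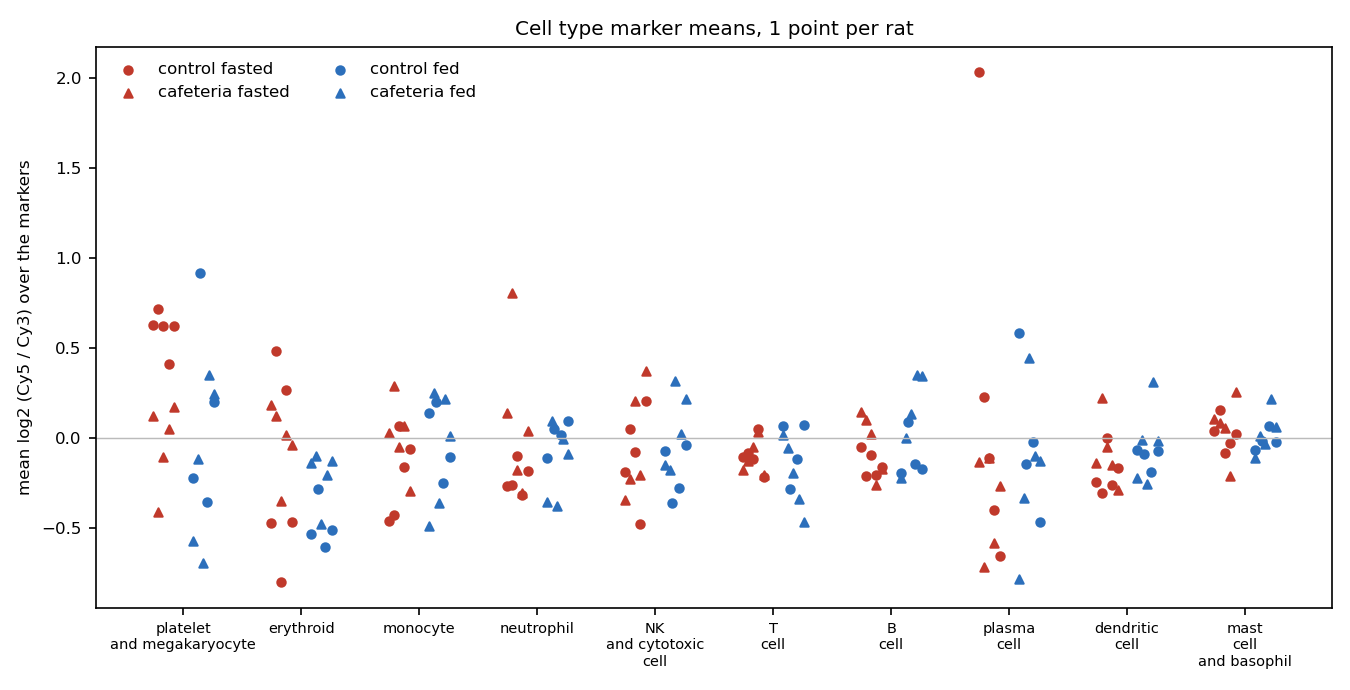
Mean log2 ratio over the measured markers of 10 cell types, with 1 point per rat, fasted rats in red to the left of fed rats in blue, circles for control and triangles for cafeteria. Fasted and fed points overlap in every list, and the plasma cell mean of control fasted rat 2 reaches 2.03.

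The arrays were extracted from their images in 2 runs, on 8 slides. Run 1 held 1 cafeteria fasted, 4 cafeteria fed, 4 control fasted and 2 control fed arrays, and run 2 held 4, 1, 1 and 2. Feeding state was thus unbalanced over the runs within each diet, in opposite directions. A difference between the diets in the fasting change is therefore partly mixed with run. Within run 1 all 513 called genes kept the sign of their change, with medians of 0.32 for the rises and -0.28 for the falls, and within run 2 all 512 that could be measured did, with medians of 0.34 and -0.29. For Bcl6 the change was -0.56 within run 1 and -1.16 within run 2, and for Ccl2 it was 1.35 and 0.92. Of the 8 slides, 7 held both fasted and fed rats, and 346 of the 513 genes changed in the same direction on all 7. The genes were called from these same arrays, which favours a shared sign within runs and slides. With slide as a fixed block, Abcg1, Apoe, Cebpe, Cfd, Clec10a, Cpt2, Cxcl2, Id1, Il6, Nr4a2, Pfkp, Rhob, Sik1 and Tsc22d3 no longer passed (adjusted p of 0.053 to 0.109). With run as a block, Abcg1, Apoe, C2, Cfd, Cpt2, Klf6, Pfkp and Rhob did not (adjusted p of 0.0503 to 0.065), and with the platelet mean as a covariate Abcg1, Apoe, C2, Cfd, Clec10a, Cpt2, Cxcl2, Per2, Pfkp and Rhob did not (adjusted p of 0.0613 to 0.0936).

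The sequences before the transcription start were searched for sites of factors that fasting hormones act through. In windows of 300 bases, 250 before and 50 after the start, TGACGTCA, the palindromic cyclic AMP response element, was found in 15 of 187 promoters of genes that rose (8.02%), 8 of 248 of genes that fell (3.23%) and 251 of 8719 of genes that were not called (2.88%), and in 1.91% of all 27457 rat promoters of RefSeq. CACGTG, the E-box that clock and MYC factors bind, was in 11.8%, 9.27% and 9.18%, and in 6.65% of all promoters. GTAAACA, bound by FOXO factors, was in 2.67%, 1.61% and 2.51%, and in 3.76% of all. The glucocorticoid element, searched as a palindrome with a spacer, was in 1, 2 and 24 promoters (0.422% of all), and SRE-1, the sterol response element, in 0, 0 and 2 (0.102% of all). Both strands were searched, and the E-box and the cyclic AMP element share their central letters but neither contains the other. These shares are descriptions, since the genes were chosen by the change itself. The 5 promoters shown are those of the genes with the largest rises whose cyclic AMP element lies wholly before the start, and they were chosen after the values were seen. Bases -120 to -1 are given 5′ to 3′ on the gene's strand, from RefSeq on the GRCr8 assembly, with the element in capitals and, in Napa, also an E-box.
Cdadc1 (GRCr8 chr15:37931785-37931904, minus strand): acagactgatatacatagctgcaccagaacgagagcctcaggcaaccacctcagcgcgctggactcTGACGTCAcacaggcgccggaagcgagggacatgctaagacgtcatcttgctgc
Areg (GRCr8 chr14:17265642-17265761, minus strand): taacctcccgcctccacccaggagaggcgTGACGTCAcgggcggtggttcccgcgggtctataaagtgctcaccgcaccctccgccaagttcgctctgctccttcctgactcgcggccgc
Napa (GRCr8 chr1:85915315-85915434, plus strand): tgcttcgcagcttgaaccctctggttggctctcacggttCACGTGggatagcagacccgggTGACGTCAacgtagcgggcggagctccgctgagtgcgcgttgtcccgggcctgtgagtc
Ccnl1 (GRCr8 chr2:152507469-152507588, minus strand): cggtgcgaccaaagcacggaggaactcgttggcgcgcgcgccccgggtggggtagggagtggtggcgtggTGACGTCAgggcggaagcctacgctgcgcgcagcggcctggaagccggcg
Ogdh (GRCr8 chr14:85363911-85364030, plus strand): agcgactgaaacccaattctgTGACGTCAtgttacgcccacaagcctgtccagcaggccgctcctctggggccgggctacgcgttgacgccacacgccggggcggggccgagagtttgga
The element begins at base -54 in Cdadc1, -91 in Areg, -59 in Napa, -50 in Ccnl1 and -99 in Ogdh. Cdadc1, related to cytidine deaminases, rose by 0.43 ± 0.07 (adjusted p = 0.000884) and Ccnl1, a cyclin of RNA splicing, by 0.37 ± 0.07 (adjusted p = 0.0046), both with no overlap between fasted and fed rats. Areg, the EGF receptor ligand amphiregulin, was well above background on 10 of 10 fasted but 2 of 9 fed arrays, so the size of its rise is not measured. The rise was 0.41 here (adjusted p = 0.00803) and 2.13 with the processed signals. Napa, which frees SNARE complexes after vesicle fusion, rose by 0.40 ± 0.09 (adjusted p = 0.0133), though it did not pass in the authors' value table (0.38, adjusted p = 0.0692). Ogdh, a subunit of the 2-oxoglutarate dehydrogenase of the citric acid cycle, rose by 0.35 ± 0.07 (adjusted p = 0.00422).

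Of the 65 called genes that the naming rule picked, 47 stayed called without any 1 of the 19 arrays, and 42 stayed called in every other setting too except median centring. Under median centring all 65 kept their sign, but only 2, Ccl2 and Dusp15, passed.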

How the data were processed

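RNA of blood mononuclear cells was measured on 2-colour Agilent rat arrays, 1 rat per array. Per the file headers, the scanner files hold spot intensity and local background intensity in Cy5 and Cy3, with probe positions on rn4. The authors' deposited value table holds log2 values: its slope against log2 of the scanner's Cy5 intensity was 0.985 to 1.02, its column medians were 9.37 to 9.76, and how it was normalised or centred is not given in the sources used here. Flags of the scanner software mark outlier spots and spots well above background, per the file headers.

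With R 4.3.3 and limma 3.58.1, background was corrected by normexp (offset 50), ratios were normalised by loess, 526 outlier values were left out, replicate spots were averaged, and 28242 of 41012 probes with Cy5 well above background on at least 4 of 29 arrays were kept. One fit of 6 diet and feeding groups gave the mean of the fasted minus fed changes of both diets (lmFit and eBayes, 2-sided, Benjamini-Hochberg over all probes, called at an adjusted p under 0.05). The script was tested on simulated data. A gene is its brightest probe. 19278 probes had 1 symbol, 181 several and 21423 none, by accession, symbol or synonym in a RefSeq gene table used for names only, and 130 names were set aside because the probe lies on another chromosome. The precision is limited by the number of arrays.

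The rule named the 15 largest rises and falls, up to 4 called members of each list (or, with none called, 2 with the largest change), 18 metabolic and hormone-responsive genes, and the 3 genes with the smallest interaction p. Some genes that the rule picked are not reported here. Members and lists were chosen with earlier results of these data known. List members outside the rule that the text names, called or not, were named after their values were seen. Rat numbers are shared between the diets and never between fasted and fed rats, and deviations of same-numbered rats correlated at -0.145 to 0.113, so they were not used as pairs.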

Additional observations from a re-analysis of the deposited data

Results flagged for a closer look

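Each group of 4 or 5 rats was searched for a single rat far from the others (Dixon's ratio), for 88 genes and 31 list means, or 476 groups. A rat stood apart in 23 groups (4.83%), and chance alone marks about 1 group in 20.

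Control fasted rat 2 had the highest means of the lists of ER chaperones (0.89, against 0.01 to 0.11 in the other control fasted rats) and of cell cycle genes (0.44), and the lowest Cxcl2 ratio (-0.87, against 0.20 to 0.63). Cafeteria fasted rat 5 was highest for the inflammatory list mean (0.58, against 0.06 to 0.20 in its group) and for Cxcl1 (2.15), and lowest for Hspa5 (0.016). The interferon list mean was 0.71 in cafeteria fasted rat 14 and -0.04 to 0.07 in the rest of its group. Other fasted rats that stood apart were control fasted 14 for Sik1 (1.21) and Cks2 (1.42), control fasted 5 for Insr (0.22), cafeteria fasted 11 for Chst2 (1.17), cafeteria fasted 2 for Dnajb9 (0.28) and cafeteria fasted 8 for Dhcr7 (-0.040).

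Among fed rats, control fed 1 stood apart for Slc27a2 (-0.32, against -4.85 to -4.14), Trib3 (-0.15), the fatty acid synthesis list mean (-0.036) and the fatty acid oxidation list mean (-0.0084). Cafeteria fed 1 did so for Sirpa (-0.61), Cpt2 (0.72) and Nr4a2 (-0.68). The others were control fed 4 for Tsc22d3 (-1.07), cafeteria fed 13 for Trib3 (0.44) and cafeteria fed 7 for the erythroid list mean (-0.48).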

How the results depend on the processing

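Against 1103 probes called, median centring of each array, with no loess, called 7, and the cause was not tested. The other settings called 915 (slide as a fixed block) to 1290 (processed signals), but these were not all the same probes. Of the 1103, 712 stayed called with Cy5 alone, 783 with slide as a fixed block and 912 with the processed signals. Of the 1056 that the authors' value table could test, 726 stayed called. All 1103 stayed called with slide or rat number as a random block. Leaving out 1 array at a time called 745 (without cafeteria fasted 11) to 1353 (without cafeteria fed 10). With the rat number as a random replicate block 1148 probes passed. The numbers are shared between diets and never between fasted and fed rats, so the block does not pair the compared groups. The interaction called 0 probes in limma in each setting that could test it. No named gene that was called changed sign. Dim probes, such as those of Il6 and Areg, limit what can be read of low levels.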

Other observations

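Further families were counted in 6 lists drawn up after the values had been seen, so the counts are descriptions, and over all genes 2.01% rose and 2.57% fell. Of 4 measured SERTAD proteins, cofactors of E2F and the cell cycle, all 4 fell: Sertad1 by 0.42 ± 0.07 (adjusted p = 0.000953 in limma), Cdca4 by 0.37 ± 0.06 (adjusted p = 0.00114), Sertad2 by 0.28 ± 0.06 (adjusted p = 0.0123) and Sertad3 by 0.22 ± 0.06 (adjusted p = 0.0219). The call of Sertad3 ended without control fed 4 or cafeteria fasted 11 (adjusted p up to 0.0519). Of 13 genes of mitochondrial transcription and tRNA processing, 4 fell and 1 rose. Mterf1 and Mterf2, of the mitochondrial termination factor family, fell by 0.44 ± 0.06 (adjusted p = 0.000406) and 0.35 ± 0.06 (adjusted p = 0.00158), with no overlap between fasted and fed rats. Trmt10c, a subunit of mitochondrial RNase P, fell by 0.44 ± 0.09 (adjusted p = 0.00409) and Tefm, the elongation factor, by 0.35 ± 0.06 (adjusted p = 0.00234), while Mterf4 rose by 0.18 ± 0.04 (adjusted p = 0.011). Of 15 mitochondrial aminoacyl-tRNA synthetases, Pars2 and Ears2 fell, Ears2 by 0.43 ± 0.11 (adjusted p = 0.024, ended without control fed 7 or cafeteria fasted 11, adjusted p up to 0.061, and with slide as a block, adjusted p = 0.0571), and Mars2 rose by 0.34 ± 0.08 (adjusted p = 0.00806).

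Of 18 genes of TNF receptor 1 signalling, 5 fell and 2 rose, with a median change of -0.04. The adaptor Tradd fell by 0.26 ± 0.05 (adjusted p = 0.00403) and Tank, which binds TRAF proteins, by 0.21 ± 0.04 (adjusted p = 0.00329), both with no overlap, and the receptor Tnfrsf1a fell by 0.35 ± 0.08 (adjusted p = 0.0162) and Casp8 by 0.25 ± 0.05 (adjusted p = 0.00357). The fifth fall, Nfkb1 (-0.17, adjusted p = 0.0288), ended without any 1 of 6 arrays (adjusted p up to 0.0752), and the rise of Birc2 (0.15, adjusted p = 0.0398) without any 1 of 11 (adjusted p up to 0.0905). Nfkb1 also did not pass with slide as a block (adjusted p = 0.0593). Among 14 inhibitory receptors and phosphatases 4 fell and 0 rose, with -0.42 ± 0.08 for Btla (adjusted p = 0.00356), a brake on B and T cells, and -0.29 ± 0.06 for Cd200 (adjusted p = 0.00514), the ligand of an inhibitory receptor of myeloid cells. Sirpa and Ptpn6 were the others, and the call of Ptpn6 (-0.25, adjusted p = 0.0366) ended without any 1 of 12 arrays (adjusted p up to 0.0818) and with slide as a block (adjusted p = 0.062). Of 11 genes of the pyruvate and 2-oxoglutarate dehydrogenase complexes 3 rose and 0 fell, among them Pdha1 by 0.47 ± 0.12 (adjusted p = 0.0201), a call that ended without control fed 4 (adjusted p = 0.0561) and with Cy5 alone (adjusted p = 0.138). Dlat (0.17, adjusted p = 0.028) ended without any 1 of 6 arrays (adjusted p up to 0.0627), with slide as a block (adjusted p = 0.0527) and with Cy5 alone (adjusted p = 0.598).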
